A study of Homo sapiens with 2 samples.

Results

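ATF4 and 9 genes that act with it or downstream of it in the cell's response to stress were followed in the established Hodgkin lymphoma cell line L-540 with and without vorinostat, a drug that inhibits histone deacetylases. The genes were ATF4, TRIB3, DDIT3, DDIT4, CEBPB, CEBPG, ATF5, SESN2, PPP1R15A and VEGFA, and every probe set carrying 1 of these symbols in the platform annotation was taken. The 10 genes were chosen by their function and with their signals on these same 2 arrays already known, TRIB3, CEBPB and ATF4 having been seen to be lower, so the ratios below describe them and test nothing. Of the 10 genes, 9 had a probe set, 15 probe sets in all out of 22283 on the array. SESN2, a sestrin that restrains the growth kinase complex mTORC1, had no named probe set and was not measured.

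The untreated group was 1 culture of L-540 and the vorinostat group was 1 culture of the same line, each hybridised to 1 Affymetrix HG_U133A array. The sources used here give neither the dose nor the length of the treatment. With 1 array per group there was no replicate and hence no test or p-value, and a difference between the cultures that had nothing to do with the drug cannot be told apart from its effect. A single cell line is a limited model of the disease. Values are MAS5 signals, linear intensities. Both arrays had a trimmed mean of 500.2 units, the floor under which a signal was treated as not measured was 68.9, and the log2 ratio of 18 spiked hybridisation controls averaged 0.06 with an SD of 0.17 over those probe sets.

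ATF4 is a transcription factor of the integrated stress response. Kinases that sense amino acid shortage, misfolded protein, viral RNA or heme shortage phosphorylate the translation factor eIF2, which slows protein synthesis in general but favours translation of the ATF4 message. ATF4 protein then pairs with other leucine zipper proteins, CEBPB and CEBPG among them, and switches on genes for amino acid supply, redox balance and, when stress lasts, cell death. Because ATF4 is controlled to a large part at translation, a message level measured on an array does not give the level of the protein.

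The promoter windows of some members are shown first, since ATF4 acts by binding composite sites beside its target genes. RefSeq windows from 250 bases before to 50 bases after the start site (build GRCh38.p14) were found for 9 of the 10 members, 17 windows in all, the exception being VEGFA. Both strands were searched for the C/EBP-ATF response element (CARE, TGATGNAA), the C/EBP site (TTGCNNAA), the cAMP response element (CRE, TGACGTCA) and the ER stress response element (ERSE). Of 35116 windows of the same length, 3.62% held the CARE letters, 10.5% the C/EBP letters, 1.85% the CRE and 0.0769% the ERSE. Those shares are of single windows, whereas the members were counted by gene over all their windows, so the measures are unlike. Among the members 1 gene, CEBPG, held a CARE, 3 genes (ATF5, PPP1R15A and SESN2) held a C/EBP match, PPP1R15A held a CRE and 0 held an ERSE, and no match overlapped a match of another motif. These are matches of letters in short windows, and no binding was measured here. The 250 bases before the start site are printed for the members with a match there that the arrays measured, and for ATF4 itself, which held none. Capitals mark the matches, namely the CARE of CEBPG (chr19:33373863-33374112, + strand), a C/EBP match and the CRE of PPP1R15A (chr19:48872171-48872420, + strand) and a C/EBP match of ATF5 that lies on the opposite strand (chr19:49928656-49928905, + strand). ATF4 is at chr22:39520309-39520558, + strand.
CEBPG: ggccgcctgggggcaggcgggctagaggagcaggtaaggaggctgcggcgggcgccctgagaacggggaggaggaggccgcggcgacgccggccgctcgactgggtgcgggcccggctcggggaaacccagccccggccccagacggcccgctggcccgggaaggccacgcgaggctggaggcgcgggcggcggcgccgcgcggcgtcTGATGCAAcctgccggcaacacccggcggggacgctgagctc
PPP1R15A: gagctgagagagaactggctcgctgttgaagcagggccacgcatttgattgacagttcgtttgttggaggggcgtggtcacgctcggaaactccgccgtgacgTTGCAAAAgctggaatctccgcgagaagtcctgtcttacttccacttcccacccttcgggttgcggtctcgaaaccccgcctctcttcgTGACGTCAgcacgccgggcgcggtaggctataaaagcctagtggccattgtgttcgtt
ATF5: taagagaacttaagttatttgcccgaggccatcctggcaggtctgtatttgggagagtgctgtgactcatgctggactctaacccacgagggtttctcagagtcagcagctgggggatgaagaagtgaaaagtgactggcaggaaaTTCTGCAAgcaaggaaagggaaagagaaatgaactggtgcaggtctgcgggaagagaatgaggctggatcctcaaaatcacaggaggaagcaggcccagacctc
ATF4: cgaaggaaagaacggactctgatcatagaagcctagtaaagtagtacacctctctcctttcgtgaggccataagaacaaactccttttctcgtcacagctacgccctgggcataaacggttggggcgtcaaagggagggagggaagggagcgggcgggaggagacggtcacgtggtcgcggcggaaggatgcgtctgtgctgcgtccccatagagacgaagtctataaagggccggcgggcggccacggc

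All 9 measured members had a lower ratio than 0 on the log2 scale, that is, a lower signal in the vorinostat array on the probe set that represents the gene, the one with the highest mean signal. A ratio below 0 was seen in 53.0% of all measured genes. At least 2-fold lower were 5 of the 9, ATF4, ATF5, TRIB3, CEBPB and CEBPG, none (0) passed 2-fold upwards and the other 4 differed by less. Among all 8277 measured genes 5.12% were at least 2-fold lower and 3.77% at least 2-fold higher. The members were picked with these ratios in view, so nothing is read from the contrast. Their median log2 ratio was -1.18, a 2.26-fold lower signal, beside -0.04 for all measured genes. Of all calls 42.4% were higher, against 58.8% after the arrays were scaled to equal medians, which moved the median of all genes to 0.08. Under that scaling the same number of members, 5, were at least 2-fold lower.

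**Figure D1:**
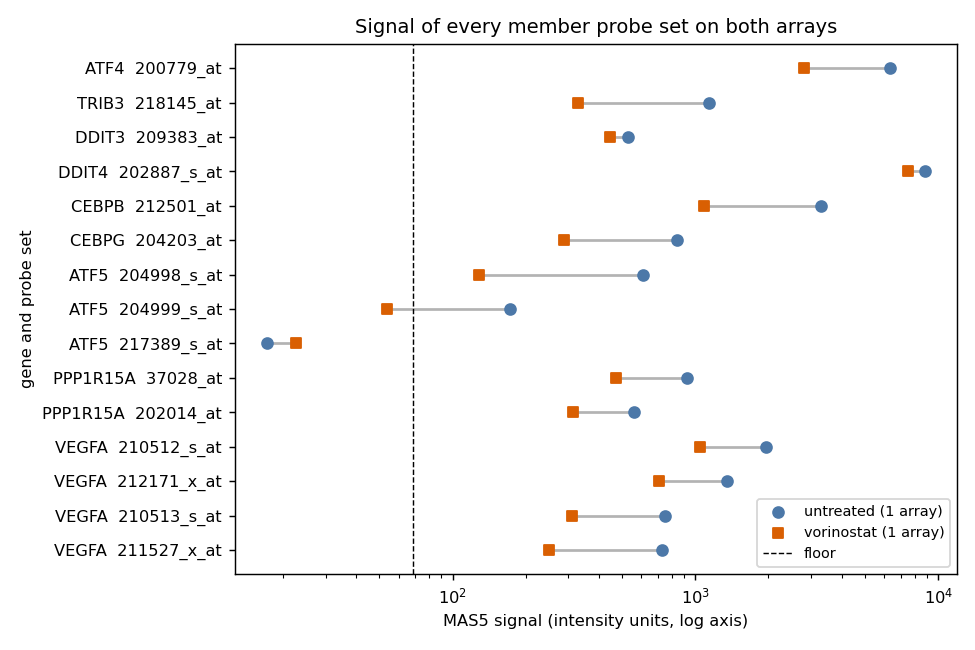
MAS5 signal (log axis) of each of the 15 member probe sets on the untreated array (circles) and the vorinostat array (squares), 1 array each, with the floor of 68.9 as a dashed line. The vorinostat signal was the lower one on 14 of the 15 probe sets, and the exception, ATF5 probe set 217389_s_at, lay under the floor on both arrays. Over all non-control probe sets 55.3% had a lower vorinostat signal.

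ATF4, the central transcription factor of the group, had a signal of 6311 in untreated cells and 2791 in vorinostat-treated cells on its single probe set, 200779_at. This was 2.26-fold lower (log2 ratio -1.18). Of all measured genes, 3.41% had a lower ratio. ATF4 was thus still well above the floor in the treated culture.

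ATF5, a relative of ATF4 whose translation is controlled in the same manner and which takes part in the mitochondrial stress response, had the lowest ratio of the members. Its brightest probe set, 204998_s_at, read 609.9 untreated and 128 treated, which was 4.76-fold lower, and only 0.145% of measured genes had a lower ratio. The second probe set, 204999_s_at, read 172 and 53.6, the latter under the floor, so that it was at least 2.50-fold lower. The last one, 217389_s_at, was under the floor on both arrays with 17.3 and 22.7 and carries no information on the direction. The suffix of all 3 marks probes that can share sequence with other transcripts.

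CEBPB and CEBPG encode leucine zipper partners of ATF4. CEBPB, which also drives inflammatory and differentiation genes, had a signal of 3297 untreated and 1082 treated, 3.05-fold lower. CEBPG, a short C/EBP protein that lacks a classical activation domain, read 842 and 288, 2.92-fold lower. Of all measured genes, 0.846% had a lower ratio than CEBPB and 1.04% a lower ratio than CEBPG. Both rest on 1 probe set without a shared-sequence suffix. The ratios of the pair differed by little, and both were lower than that of ATF4.

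DDIT3 encodes CHOP, the factor through which ATF4 promotes cell death under lasting stress. Its signal was 529 untreated and 443 treated on 209383_at, 1.19-fold lower (log2 ratio -0.26). Of all measured genes, 32.9% had a lower ratio. The ratio of DDIT3 was closer to 0 than those of ATF4 and its partners, and without replicates it cannot be said whether they differ beyond error.

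TRIB3, a pseudokinase induced by ATF4 and CHOP that binds ATF4 and the kinase AKT, had 1136 untreated and 329.5 treated on 218145_at. It was 3.45-fold lower, and 0.520% of measured genes had a lower ratio. TRIB3 belonged with ATF5, CEBPB and CEBPG to the members with the largest differences, while the factor DDIT3 that shares its regulation was within 2-fold.

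PPP1R15A, known as GADD34, is the subunit that brings a phosphatase to eIF2 and so ends the response. Its brighter probe set, 37028_at, read 922 untreated and 472 treated, 1.95-fold lower, and the other, 202014_at, read 560.3 and 314, 1.78-fold lower. Both probe sets lacked a shared-sequence suffix, both went the same way, and neither reached the 2-fold line.

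DDIT4, also called REDD1, restrains mTORC1 and is induced by ATF4, hypoxia and glucocorticoids. Its 1 probe set, 202887_s_at, read 8789 untreated and 7541 treated, 1.17-fold lower (log2 ratio -0.22). This was the smallest difference among the members, close to that of DDIT3.

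VEGFA, the growth factor of blood vessels, is a target of both ATF4 and the hypoxia factor HIF1A. Its 4 probe sets read 1959 and 1044 (210512_s_at), 1350 and 707 (212171_x_at), 747 and 309.7 (210513_s_at), and 726 and 250.1 (211527_x_at), untreated first. All 4 were lower in the treated array, by 1.88-fold, 1.91-fold, 2.41-fold and 2.90-fold in that order. The brighter pair lay within 2-fold and the dimmer pair beyond it, so the gene counts as within 2-fold on its brightest probe set and as 2-fold lower on the median of the 4 (log2 ratio -1.10). The probe sets carry suffixes of shared sequence and are not replicates of each other.

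**Figure D2:**
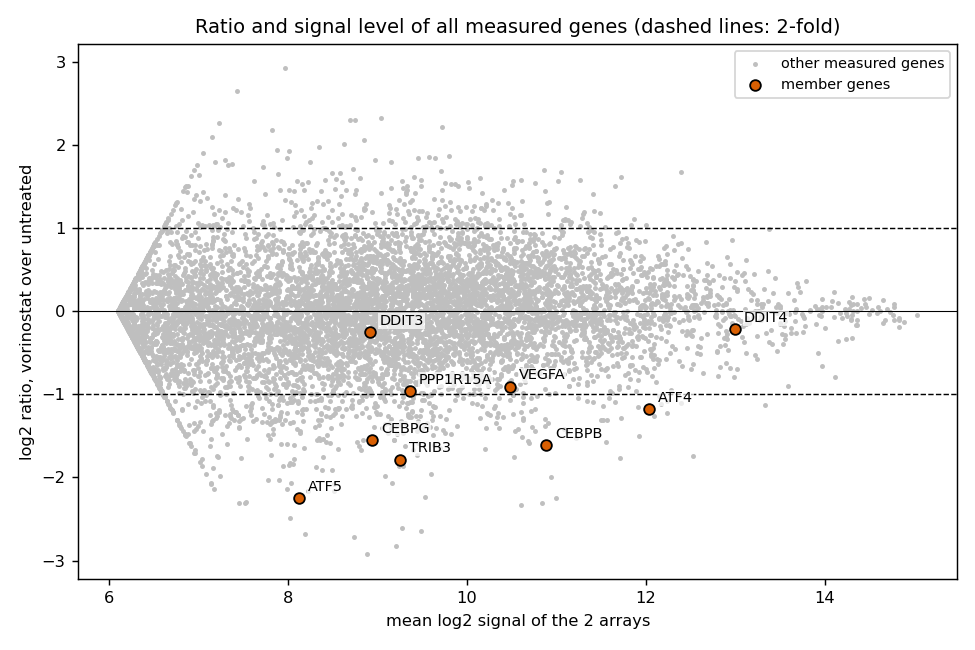
Log2 ratio of vorinostat over untreated against mean log2 signal for the 8277 measured genes (grey) with the 9 measured members in orange, and dashed lines at 2-fold. The members lie between -2.25 (ATF5) and -0.22 (DDIT4), all below 0, and spread over signal levels from that of ATF5 to that of DDIT4.

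The spread of ratios depends on the signal level. When measured genes were divided into 4 groups of nearly equal size by mean signal, 3.67% of the dimmest, 8.51% of the next, 4.93% of the one after and 3.38% of the brightest group were at least 2-fold lower. ATF5 sat in the second group, where such ratios were the most frequent. TRIB3, CEBPG, DDIT3 and PPP1R15A sat in the following one, and ATF4, CEBPB, DDIT4 and VEGFA in the brightest, where they were the least frequent. The SD of log2 ratios over genes was 0.67, 0.62 and 0.53 in these 3 groups, from dim to bright. In the dimmest group it was 0.51, but mean signals there ran from 68.9 to 148, where the floor limits how large a ratio can be.

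The other genes known as ATF4 targets leaned the same way by smaller amounts. Of 49 genes in that list 39 were measured, and 2 were at least 2-fold lower, 1 passed 2-fold upwards and 36 differed by less, shares close to the background. Their median log2 ratio was -0.39 (from -0.44 to -0.29 under 8 alternative settings), beside -0.04 for all genes, and 32 of 39 had a ratio below 0, where 53.0% of all measured genes did. With equal medians 29 of 39 were below 0, beside 43.0% of all genes. The list was drawn up with earlier results of these arrays known, which already showed a lower median for a related list. It is no independent evidence of the direction.

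Grouped by role, amino acid transporters had the lowest median ratio of the ATF4 targets. All 8 that were measured had a ratio below 0, with a median 1.52-fold lower, and after quantile normalization 7 of the 8 did. Of all measured genes 53.0% had a ratio below 0, and 48.4% after quantile normalization. At least 2-fold lower were 2 of the 8, beside 5.12% of all genes. The glutamine carrier gene SLC1A5 read 1775 untreated and 727 treated, 2.44-fold lower. SLC7A1, which imports arginine and lysine, read 2367 and 1023, 2.31-fold lower, and its 4 measured probe sets had log2 ratios from -1.85 to -1.21, 2 of them bounds set by the floor. SLC7A11, the cystine importer, was 1.79-fold lower (381 and 213).

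Enzymes that charge tRNAs with amino acids differed by less. Of 10 measured synthetase genes 9 had a ratio below 0 (6 of 10 with equal medians), 0 passed 2-fold and the median was 1.26-fold lower, from AARS1 at 1.53-fold lower to EPRS1 at 1.18-fold higher. Of 8 genes for amino acid and one-carbon synthesis 6 were below 0, with 0 past 2-fold. Among all measured genes 53.0% had a ratio below 0 (43.0% with equal medians), 5.12% were at least 2-fold lower and 3.77% at least 2-fold higher. With 0 calls among so few genes, both groups were close to those last 2 shares. PSAT1, of serine synthesis, read 1498 and 785, 1.91-fold lower, and asparagine synthetase (ASNS), a classical ATF4 target, read 2332 and 1742, 1.34-fold lower. ALDH18A1, of proline synthesis, was 1.68-fold higher.

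Of the remaining targets, CHAC1, which degrades glutathione and is a well-known ATF4 target, read 96.8 untreated and was under the floor in the treated array, at least 1.41-fold lower. ATF3, a stress factor induced by ATF4, read 3535 and 3883, within 2-fold with a log2 ratio of 0.14. MAP1LC3B, an autophagosome protein gene, was the 1 target that was at least 2-fold higher (1580 and 3322, 2.10-fold). Both its measured probe sets had a positive ratio, with log2 ratios of 1.07 and 0.95, the latter short of 2-fold. Without shared-sequence probe sets 0 of 21 measured targets were at least 2-fold higher.

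**Figure D3:**
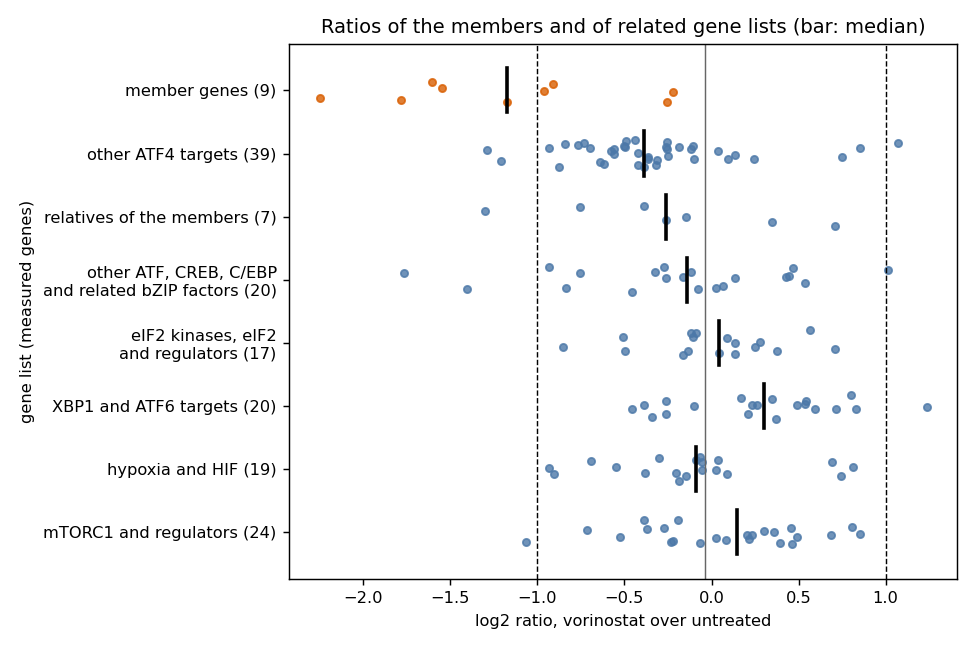
Log2 ratio of vorinostat over untreated for each measured gene of the members (orange) and of 7 related lists (blue), with the number of measured genes in brackets, black bars at the list medians, a grey line at the median of all genes and dashed lines at 2-fold. The medians run from -1.18 for the members and -0.39 for other ATF4 targets to 0.30 for XBP1 and ATF6 targets.

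The genes that act upstream of ATF4 had ratios on both sides of 0. Of 17 measured genes for eIF2 kinases, eIF2, its exchange factor eIF2B and the phosphatase, 0 were at least 2-fold lower or higher, beside 5.12% and 3.77% of all genes. A ratio below 0 was seen in 8 of the 17 (5 with equal medians), beside 53.0% of all genes (43.0%), and the median of the list was 0.04. The median was 0.17 with equal medians and below 0 under 3 other settings, -0.09 with the offset, -0.09 using the 25th percentile as floor and -0.07 on the median over probe sets, a rule that also put DELE1 at least 2-fold lower (log2 ratio -1.52). PERK (EIF2AK3), the kinase that senses misfolded protein, read 534.5 untreated and 694 treated, 1.30-fold higher. EIF2S1, the eIF2 subunit that the kinases phosphorylate, was 1.48-fold higher (3918 and 5801). The eIF2B subunit gene EIF2B3 was 1.63-fold higher and the eIF2 subunit gene EIF2S2 1.42-fold lower. DELE1, which relays mitochondrial stress to the response, was 1.81-fold lower on its brighter probe set and had a log2 ratio of -2.19 on its other one, a bound because that probe set was under the floor in the treated array. EIF2AK4, the kinase for amino acid shortage, and PPP1R15B, the constant partner of the phosphatase, had no named probe set.

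The other branches of the unfolded protein response had a median ratio above 0. Of 20 measured XBP1 and ATF6 target genes 1 was at least 2-fold higher, 0 were at least 2-fold lower and 14 had a ratio above 0, with a median log2 ratio of 0.30 (from 0.26 to 0.43 under 8 alternative settings). Among all genes measured, 3.77% reached 2-fold higher and 47.0% had a ratio above 0. With equal medians 15 of the 20 were above 0, beside 57.0% of all genes. The higher one, the ER chaperone gene HSP90B1, read 946 and 2231 on its brightest probe set, but its 2 probe sets differed in sign (log2 ratios 1.24 and -0.14). SEC61B, of the ER protein channel, was 1.78-fold higher, SEL1L, of ER-associated degradation, 1.74-fold and the COPII coat gene SEC24D 1.64-fold. HSPA5, the chaperone BiP and the usual mark of this response, read 3220 and 3859, 1.20-fold higher. XBP1 itself, read without regard to splicing, was 1.37-fold lower (933 and 681).

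A list of 26 leucine zipper factors outside the members covered the ATF, CREB and C/EBP families and some related genes. It left out the JUN, FOS and MAF genes. Of its 20 measured genes 2 were at least 2-fold lower, 1 was higher and 17 lay within 2-fold. Among all measured genes 5.12% were lower and 3.77% higher by that rule. The median of the 20 was -0.14, beside -0.04 for all genes, and with equal medians it was -0.01, beside 0.08. BATF3 and BATF, AP-1 factors of lymphoid cells, were 3.40-fold and 2.65-fold lower. JUNB, which is outside this list and was read among the Hodgkin cell markers, was 2.03-fold lower. CREB3L2, an ER-bound factor, was 2.02-fold higher (685 and 1380), a call that was lost after quantile normalization and after loess. Its 1 measured probe set carried a shared-sequence suffix, so the call was also absent without such probe sets. NFE2L1, which controls proteasome genes, was 1.91-fold lower, and NFE2L2, the NRF2 gene, had a log2 ratio of -0.12. CEBPD, a close relative of CEBPB, read 117.5 and 69.5, 1.69-fold lower and barely above the floor in the treated array, and CEBPA was under the floor on both arrays.

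The closest relatives of the members did not form a block. TRIB1, the pseudokinase gene related to TRIB3, was 2.46-fold lower (896 and 364), whereas TRIB2 was under the floor in untreated cells and at least 1.27-fold higher in treated ones. SESN1, the sestrin gene known as a p53 target, was 1.64-fold higher (286 and 468). VEGFB was 1.31-fold lower. SESN3 and DDIT4L had no named probe set. Of 7 measured relatives 1 was at least 2-fold lower and 0 were higher, beside 5.12% and 3.77% of all genes, and the median log2 ratio of the relatives was -0.26.

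DDIT4 and VEGFA are also hypoxia targets, and DDIT4 and SESN2 feed into mTORC1. Of 19 measured hypoxia and HIF genes 0 passed 2-fold, where 5.12% of all genes were at least 2-fold lower and 3.77% higher. With the floor at the 25th percentile 1 of 22 measured was at least 2-fold lower, and with the offset 1 of 24. The median of the list was -0.09, and 0.04 with equal medians. HIF1A was 1.76-fold higher (2682 and 4719), P4HA1, a collagen hydroxylase, was 1.67-fold higher, and the oxygen sensor gene EGLN1 and the kinase gene PDK1 were 1.91-fold and 1.87-fold lower. Of 24 measured mTORC1 genes 1 was at least 2-fold lower and 0 were at least 2-fold higher, beside the same shares of all genes, and the median was 0.15 (0.27 with equal medians). The lower one was MLST8, a subunit of the complex (607 and 290.3, 2.09-fold), and EIF4EBP1, the translation repressor that mTORC1 switches off and ATF4 induces, was 1.80-fold higher. Of the VEGF receptor genes 4 of 5 were under the floor on both arrays, and the co-receptor gene NRP2 had no settled direction. On the log2 scale its ratio was -0.69 (a bound) from the brightest probe set and 0.23 from the other one, which also stands for the gene with the floor at the 25th percentile.

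Marker genes of the cell types were read beside the members. Of 14 Hodgkin cell markers 12 were above the floor on both arrays, and their summed signal was 45137 untreated and 29029 treated. Of the 12, 5 were at least 2-fold lower, against the 5.12% of all measured genes given above, and 7 lay within 2-fold. The 5 were TNFRSF8 (the CD30 gene), CD70, JUNB, BATF3 and CD86. Of the 12, 10 had a ratio below 0, beside 53.0% of all genes, and the median log2 ratio was -0.70, beside -0.04. Only IRF4 (12032 and 14699) and GATA3 (1174 and 1565) had ratios above 0, with log2 ratios of 0.29 and 0.42. The chemokine genes CCL17 and CCL22 were under the floor on both arrays. Of 11 T cell markers 6 were measured (sum 6356 and 2223), with CD3D, CD3G, CD8A, LCK and CD7 under the floor on both arrays. All 6 had a ratio below 0, beside 53.0% of all genes. At least 2-fold lower were 3 of the 6 (CD247, LAT and, as a bound, CD3E), beside 5.12% of all genes. CD247 (4463 and 942) made up most of the untreated sum, and without it the sum was 1893 and 1281, 1.48-fold lower in place of 2.86-fold. Of 10 B cell markers 4 were measured (sum 2721 and 649, 4.19-fold lower). All 4 had a ratio below 0, and 3 of the 4 (IGHM, BLK and PAX5) were at least 2-fold lower, beside the same shares of all genes. PAX5 had a log2 ratio of -0.09 on its other measured probe set. Without IGHM, whose 3 probe sets had log2 ratios from -2.83 to -0.02, the sum was 1145 and 427, 2.68-fold lower. Both sums without 1 gene were chosen after seeing the data. Of 10 monocyte and granulocyte markers 4 were measured (sum 552 and 374, CD14 and LYZ under the floor), and of 12 fibroblast, endothelial and epithelial markers 6 (sum 654 and 693, CDH5 and EPCAM under the floor). As a sign of RNA quality, GAPDH had 3' over 5' ratios of 0.856 untreated and 0.850 treated, and ACTB of 1.06 and 1.24. In a bulk RNA sample fewer cells that express a gene and less RNA per cell cannot be told apart. The part of these shifts in the members' ratios was not tested.

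**Figure D4:**
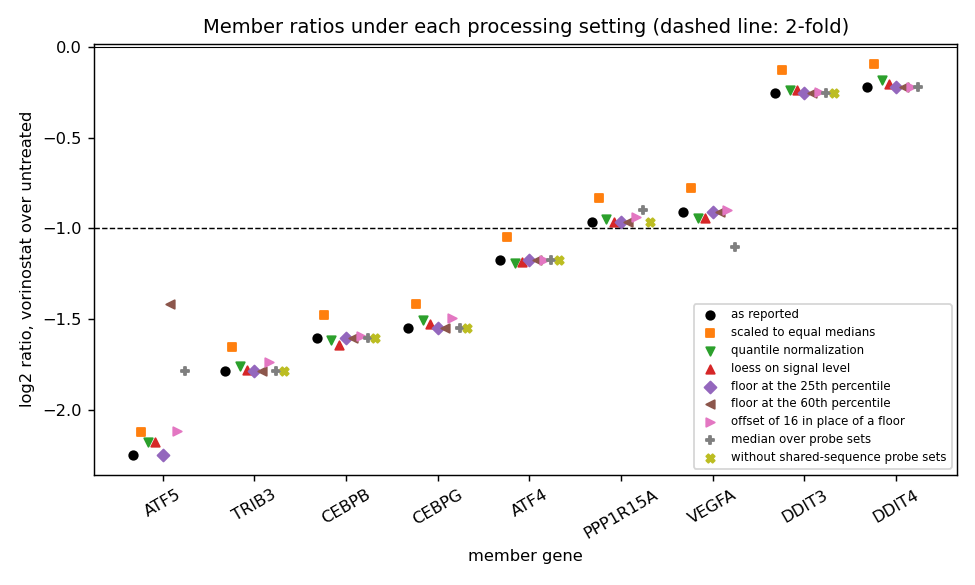
Log2 ratio of vorinostat over untreated for each of the 9 measured members as reported (black) and under the 8 alternative settings that keep the 2-fold rule (colours), with a dashed line at 2-fold. All 69 alternative values were below 0 and 68 lay on the same side of 2-fold as reported, VEGFA on the median of its probe sets being the exception. Many of the 69 repeat the reported ratio because the setting could not change it, so these counts are no measure of robustness.

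Other ways of processing the values moved the members little, but several settings could not have moved some of them. ATF4, TRIB3, CEBPB, CEBPG and DDIT3 each had 1 probe set, without a shared-sequence suffix and above every floor used. The other floors and the probe set rules therefore only repeat their reported ratios. ATF4 ranged from -1.19 to -1.05 in log2 ratio, TRIB3 from -1.79 to -1.66, CEBPB from -1.64 to -1.48 and CEBPG from -1.55 to -1.42. PPP1R15A stayed short of 2-fold, from -0.97 to -0.83, and DDIT3 and DDIT4 stayed near 0, from -0.26 to -0.13 and from -0.22 to -0.09. ATF5 had the widest range, from -2.25 to -1.42, the last being a bound set by the floor at the 60th percentile.

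Genes with a motif match in any promoter window were set beside the rest as a description of the arrays. Of 202 measured genes with a CARE 15 were at least 2-fold lower (7.43%) and 9 higher (4.46%). Among 6637 measured genes with windows but no CARE 4.79% were lower and 3.84% higher, so the CARE genes had larger shares both ways. The medians were -0.10 and -0.03. For the C/EBP letters the share lower was 7.05% of 709 genes, beside 4.62% without, and for the CRE 2.86% of 280 genes, beside 4.96%. The share higher was 3.95%, beside 3.85%, for the C/EBP letters and 5.36%, beside 3.80%, for the CRE. No test was run on these shares. CEBPG was the 1 member in the first set.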

How the data were processed

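Total RNA of 1 untreated and 1 vorinostat-treated L-540 culture was measured on 1 array each. The authors deposited intensity values per probe set, MAS5 signals on a linear scale per the submitters' processing notes. The sources used here name no MAS5 version, scaling target or detection calls. The deposited scaling was kept.

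Symbols came from the platform annotation and a RefSeq gene table (GRCh38.p14). Of 22215 non-control probe sets 19065 carried 1 symbol, 1043 several and 2107 were unnamed here; 0 probe sets with several symbols named a member. Signals under the 40th percentile of both arrays pooled (68.9, above the highest poly-A control at 43.1) were set to that floor before log2. A gene whose probe sets all lay there on both arrays counted as unmeasured, and one there on 1 array gave a bound. The brightest probe set stood for its gene. A difference of at least 2-fold was counted as a rule of size, without a test. Steps ran in Python 3.11.15 and were tested on simulated data.

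The members and lists were chosen with earlier results of these data known. Named genes were all members, up to 4 with the largest ratios in each list, and a set of fixed genes; SLC7A11, AARS1, EPRS1 and ALDH18A1, the roles within the ATF4 target list, the 4 signal groups and the shares by motif were added after the values were seen. The precision is limited by the number of arrays, 1 per group. Alternatives were 3 scalings, 3 floors, 2 probe set rules and 2 thresholds.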

Additional observations from a re-analysis of the deposited data

How the results depend on the processing

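Under 10 alternatives the number of members counted as lower lay between 3 and 7, and 0 were counted as higher under any of them. Of these alternatives 8 kept the 2-fold rule and 2 changed it. At least 3-fold lower were 3 members (77 of all 8277 genes), and at least 1.5-fold lower were 7 (1283 of 8277). Under the 2-fold rule the number was 6 on the median over probe sets and 5 under most settings. It was 4 of 6 without shared-sequence probe sets, where ATF5, DDIT4 and VEGFA were not measured. The members' median log2 ratio lay between -1.36 and -1.05. Over all genes the number lower was 689 for a 25th percentile floor, 251 both for a 60th percentile floor (5814 genes measured) and without shared-sequence probe sets (5187), 707 with the offset of 16, 1283 at 1.5-fold and 77 at 3-fold; the number higher was 471 with the offset, 1051 at 1.5-fold and 45 at 3-fold. The lower floor and the offset measure more genes. Scaling to equal medians gave 321 lower and 459 higher.

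Calls in the related lists rest on few genes. The higher call of HSP90B1 was lost on the median over probe sets and without shared-sequence probe sets. MLST8 lost its call with equal medians, and DELE1 was lower on the median over probe sets. The calls of MLST8, MAP1LC3B and CREB3L2 were also absent without shared-sequence probe sets. In the list of other ATF4 targets 4 of 45 measured genes were at least 2-fold lower with the offset, in place of 2 of 39. No paired analysis was possible because each group held 1 array. Dim probe sets limit what can be said of ATF5, CHAC1 and CEBPD.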
